A study of Mus musculus with 8 samples.

Results

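The C18 oxylipins examined here are the masses of a mouse faecal metabolite table that have the elemental formula of an oxygenated fatty acid with 18 carbons. They were taken by formula: a neutral mass within 3 ppm of C18HxOy, with 28, 30, 32, 34 or 36 hydrogens (x) and 3, 4 or 5 oxygens (y). The formulas were chosen with earlier results of these data known. All 15 formulas were matched, by 23 of the 2429 masses of the table. Of these, 8 formulas had 2 masses each and 7 had 1, and the errors ran from 0.0775 to 0.770 ppm with a median of 0.352 ppm. The only mass between 3 and 10 ppm of a formula was 300.2687 Da, at 7.51 ppm from C18H36O3, listed in untreated samples only with a mean of 5.22. A formula is not an identification, because infusion does not separate isomers, and every compound name below stands for a formula that the named acid shares with others.

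Feces came from age-matched female C57BL/6 mice, an inbred laboratory strain. The study set 4 untreated samples against 4 samples taken 24 h after an oral gavage of 20 mg of streptomycin, an antibiotic that stops bacterial protein synthesis, and asked how the antibiotic altered the small molecules of the gut. Extracts were infused into a high-resolution ion cyclotron resonance mass spectrometer, and each value below is the mean relative intensity of 2 acquisitions of a sample, in the arbitrary units of the deposited table. The streptomycin samples were also the later ones, so the effect of the antibiotic and that of the collection time cannot be told apart. The labels do not tie each sample to a mouse, and the p-values describe the spread between these samples, which may be technical.

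Oxylipins are made when oxygen is added to an unsaturated fatty acid. Lipoxygenases, cyclooxygenases and cytochromes P450 of the host, enzymes of plants, and oxidation in air add oxygen to linoleic and linolenic acid. The products include hydroperoxides and hydroxy, oxo and epoxy acids, and hydrolysis of the epoxides gives diols and triols. Gut bacteria also make such acids: their hydratases add water to the double bonds of oleic and linoleic acid and give hydroxy acids that can then become oxo acids. These steps change the number of oxygens, the number of hydrogen pairs or, as when water is added, both. The formulas therefore form a grid of oxygen number against hydrogen number.

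Among masses in both groups, most with 3 oxygens were called lower after streptomycin. Of those with more oxygens, some were called higher and none lower. Of the 14 masses listed in both groups, 6 fell and 4 rose (limma, adjusted p under 0.05 over all 2429 masses), and 4 did not pass. All 6 that fell had 3 oxygens, and the 4 that rose had 4 or 5. Of the 5 masses with 4 oxygens, 3 rose and 2 did not pass, and of the 2 with 5 oxygens 1 rose and 1 did not pass. For comparison, 38.7% of the 633 masses of the table that were listed in both groups fell and 20.7% rose. The median log2 change was -1.14 over the 7 such masses with 3 oxygens and 0.71 over the 5 with 4 oxygens, against -0.47 over the 633. The 2 with 5 oxygens stood at 1.88 and -0.56, and at 1.76 and 1.33 without the second streptomycin sample, which listed one of them at 0. Extracts were run in both ion modes and the mode of a mass is not known here, so whether 2 masses of a formula are 1 compound was not tested, and they are not independent counts. A further 5 members were listed in streptomycin samples only, all with 4 or 5 oxygens, and 4 in untreated samples only, all with 3 or 4. Among all masses, 47.3% were listed in streptomycin samples only and 26.6% in untreated samples only, so one-sided listing as such was common.

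**Figure D1:**
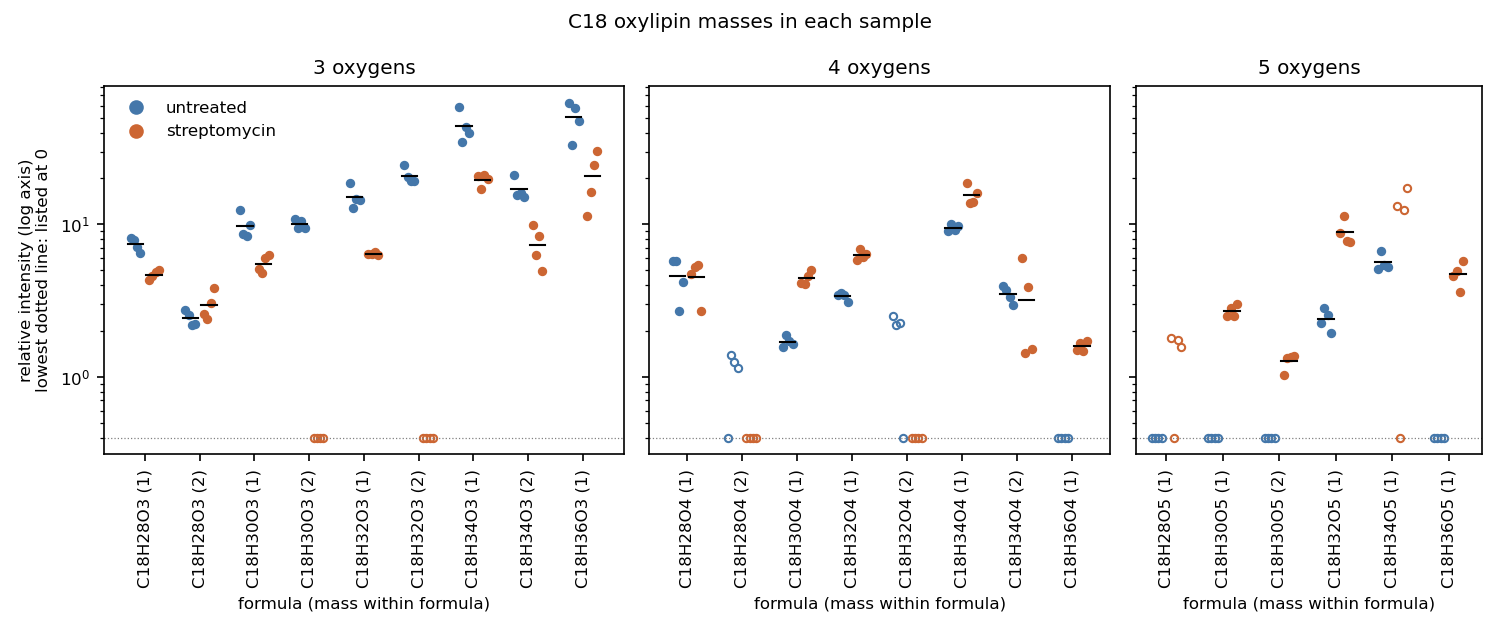
Relative intensity (log axis) of each of the 23 masses in each of the 4 untreated and 4 streptomycin samples, by oxygen number. Points are samples, black bars are group means, and open points belong to groups in which at least 1 sample listed the mass at 0, drawn on the dotted line. With 3 oxygens most streptomycin points lie below the untreated ones, and with 5 oxygens they lie above, except for samples listed at 0.

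The summed intensity of the 9 masses with 3 oxygens went from 177 ± 31.3 in untreated to 67.2 ± 9.43 in streptomycin samples (SD, n = 4), while that of the 8 masses with 4 oxygens went from 25.3 ± 2.56 to 35.7 ± 3.62 and that of the 6 masses with 5 oxygens from 8.03 ± 1.06 to 29.5 ± 6.81. As a share of all C18 oxylipin intensity, acids with 3 oxygens made up 79.3% to 86.7% of the untreated samples and 45.4% to 53.5% of the streptomycin samples. Those with 5 oxygens made up 2.91% to 5.20% and 18.3% to 25.0%. The groups did not overlap in either share. Shares by hydrogen number overlapped between the groups for all 5 hydrogen numbers, for example 37.8% ± 0.980 and 42.4% ± 6.95 for 34 hydrogens and 20.7% ± 1.40 and 16.6% ± 3.69 for 32 hydrogens (SD, n = 4). In both examples the overlap came from the second streptomycin sample alone, at 34.8% and 22.0%, which listed C18H34O5 at 0. The other streptomycin samples lay at 40.7% to 51.5% against 36.6% to 38.6% in untreated samples for 34 hydrogens. For 32 hydrogens they lay at 13.9% to 15.7% against 19.9% to 22.8%. Masses not listed count as 0 in these sums and shares. Of the masses with 3 oxygens, 2 were at 0 in all streptomycin samples, with untreated means of 20.7 and 10.1. With 4 oxygens, 2 were at 0 in all streptomycin and 1 in all untreated samples, and with 5 oxygens 4 in all untreated samples. Shares without these masses were not computed. Response differs between masses of an infusion spectrum, so these sums describe signal and not amounts. The sum over all 23 masses was 210 ± 30.5 and 132 ± 15.1, or 1.06% ± 0.156 and 0.595% ± 0.065 of the summed intensity of the table (SD, n = 4).

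**Figure D2:**
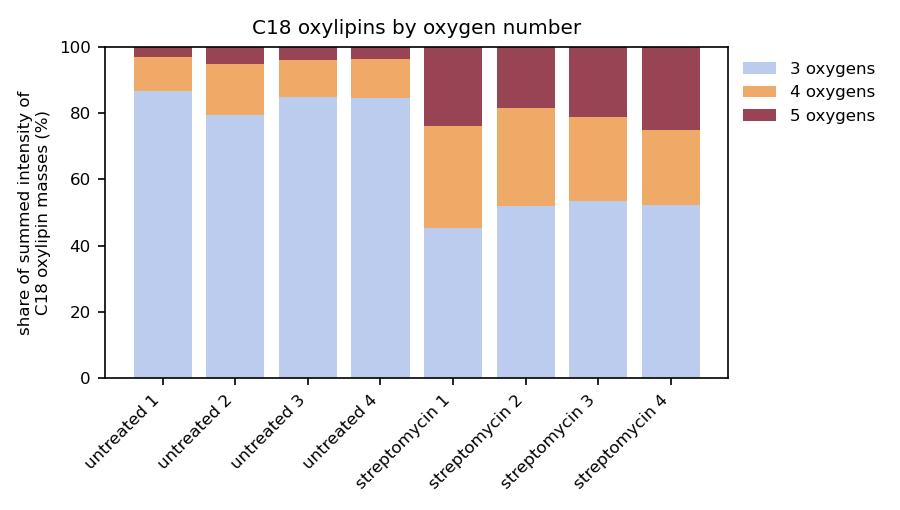
Share of the summed intensity of the 23 C18 oxylipin masses, in percent, held by formulas with 3, 4 and 5 oxygens in each of the 8 samples. The share with 3 oxygens is at least 79.3% in every untreated sample and at most 53.5% in every streptomycin sample.

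The table as a whole differed between the groups in ways that touch these values. Samples listed 1210 to 1270 masses in the untreated and 1633 to 1768 in the streptomycin group, with summed intensities of 19761 to 20140 and 21600 to 23221. The added instrument calibrant, 2 masses, was also higher in streptomycin samples, at 193 ± 21.7 against 147 ± 9.31 and at 138 ± 12.4 against 100.3 ± 12.0 (SD, n = 4). On a calibrant scale the median log2 change of the masses in both groups was -0.86, after division by total intensity -0.63, and after division by the median ratio -0.08. On each of these 3 scales the 6 masses that fell were still called lower. Of the 4 that rose, C18H34O4 did not pass on the calibrant scale, at 0.29 (limma adjusted p = 0.121), and the others passed on all 3. In the first streptomycin sample, the 2 acquisitions were equal within 0.1% for 881 of 1693 masses, and for 14 of the 19 members listed there. In the other samples this held for 10 to 36 masses. The 2 acquisitions of the first streptomycin sample may thus not be separate measurements of those masses, and why they are equal was not tested. Without that sample the counts were again 6 lower and 4 higher.

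Hydroxystearic acid, the saturated member with 1 hydroxyl group that bacterial hydratases form from oleic acid, has the formula C18H36O3 and was matched by 300.2665 Da. Its intensities were 62.7, 33.2, 58.0 and 47.6 in the untreated samples and 11.4, 16.3, 24.6 and 30.1 in the streptomycin samples. Every streptomycin sample lay below every untreated one, with a wide spread in both groups. The mean went from 50.4 ± 13.1 to 20.6 ± 8.37 (SD, n = 4), a log2 change of -1.35 ± 0.35 (SE, limma adjusted p = 0.00756). In untreated samples it was the member mass of highest mean intensity.

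The formula C18H34O3 is shared by hydroxyoctadecenoic acids such as ricinoleic acid, by epoxystearic acid and by oxostearic acids. The more intense of its 2 masses, both at 298.2509 Da, stood at 58.5, 34.8, 43.3 and 39.7 in untreated and at 20.7, 17.2, 21.0 and 19.8 in streptomycin samples. The other stood at 20.9, 15.6, 16.03 and 15.2 and at 9.90, 6.31, 8.35 and 4.91. For both masses the groups were fully separate, with log2 changes of -1.14 ± 0.17 (SE, limma adjusted p = 0.000352) and -1.24 ± 0.23 (SE, limma adjusted p = 0.00147). A further mass, 276.2688 Da, below the second by the difference between sodium and hydrogen, stood at 0.981 to 1.05 times its intensity in the untreated samples and was at 0 in the others. Whether these masses come from 1 compound was not tested, and both count among the 6 that fell.

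Hydroxyoctadecadienoic acids (HODE) and epoxyoctadecenoic acids (EpOME), the usual first products of linoleic acid oxidation, share the formula C18H32O3 with the oxo-octadecenoic acids that gut bacteria make from linoleic acid. Its mass at 296.2353 Da stood at 18.7, 12.8, 14.6 and 14.4 in untreated samples and at 6.43, 6.38, 6.62 and 6.28 in streptomycin samples. The streptomycin values lay within a narrow band below all untreated ones, and the log2 change was -1.22 ± 0.12 (SE, limma adjusted p = 3.28e-05). The other mass of the formula, 296.2352 Da, stood at 24.3, 20.4, 19.1 and 19.1 in untreated samples and was listed at 0 in all 4 streptomycin samples.

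The formula C18H30O3 belongs to oxo-octadecadienoic acids, which form from HODE, and to hydroxyoctadecatrienoic acids, which form from linolenic acid. Of its 2 masses at 294.2196 Da, the first stood at 12.4, 8.60, 8.33 and 9.95 in untreated samples and at 5.09, 4.79, 5.98 and 6.27 in streptomycin samples. It was lower in every streptomycin sample, by a log2 change of -0.82 ± 0.16 (SE, limma adjusted p = 0.00177). The second stood at 10.8, 9.51, 10.6 and 9.47 in untreated samples and was listed at 0 in the streptomycin samples. Another mass of the table, 272.2375 Da, which lies below it by the difference between sodium and hydrogen, stood at 0.975 to 1.013 times the second mass in the untreated samples, and it was also listed in the streptomycin samples, at 5.24 ± 0.107 against 9.99 ± 0.658 (SD, n = 4). Whether these masses are 1 ion listed under different neutral masses was not tested. The other mass of C18H32O3 had such a companion as well, at 274.2532 Da, at 0.997 to 1.04 times its intensity, and no streptomycin sample listed that companion.

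Oxo-phytodienoic acid, a plant precursor of jasmonic acid, has the formula C18H28O3, and here the 2 masses disagreed. Both lay at 292.2039 Da. The more intense stood at 8.09, 7.91, 7.13 and 6.48 in untreated and at 4.32, 4.55, 4.85 and 5.00 in streptomycin samples, a log2 change of -0.66 ± 0.11 (SE, limma adjusted p = 0.000536). The other stood at 2.75, 2.54, 2.20 and 2.23 and at 2.59, 2.39, 3.04 and 3.85, with overlapping groups and a log2 change of 0.27 ± 0.17 (SE, limma adjusted p = 0.162). Scaled by the median ratio, this mass passed as higher, at 0.66 (limma adjusted p = 0.00366). Scaled by the calibrants, its change had the opposite sign and did not pass, at -0.15 (limma adjusted p = 0.556).

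Among the acids with 4 oxygens, dihydroxyoctadecenoic acids (DiHOME) are the diols that epoxide hydrolase makes from EpOME, and they share C18H34O4 with octadecanedioic acid. The more intense of its 2 masses, both at 314.2458 Da, stood at 9.10, 10.0, 9.15 and 9.68 in untreated and at 18.8, 13.8, 14.03 and 16.02 in streptomycin samples. The streptomycin samples were all higher, and the log2 change was 0.71 ± 0.12 (SE, limma adjusted p = 0.000748), which did not pass on the calibrant scale. The second mass stood at 3.96, 3.72, 3.35 and 2.97 in untreated samples and at 6.00, 1.43, 3.86 and 1.53 in streptomycin samples. Its streptomycin values lay on both sides of the untreated ones, and it did not pass (log2 change -0.39 ± 0.47 SE, limma adjusted p = 0.457).

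Hydroperoxyoctadecadienoic acids, the direct products of lipoxygenase on linoleic acid, have the formula C18H32O4. Its mass at 312.2302 Da stood at 3.46, 3.52, 3.44 and 3.09 in untreated samples and at 5.81, 6.85, 6.06 and 6.43 in streptomycin samples, a log2 change of 0.90 ± 0.09 (SE, limma adjusted p = 3.37e-05). Another mass, 312.2303 Da, was listed in 3 untreated samples, at 2.50, 2.18 and 2.24, and at 0 in the fourth and in every streptomycin sample. The corresponding products of linolenic acid, hydroperoxyoctadecatrienoic acids, have the formula C18H30O4. At 310.2145 Da the values were 1.57, 1.88, 1.71 and 1.64 in untreated and 4.10, 4.07, 4.59 and 5.00 in streptomycin samples, a rise by a log2 change of 1.38 ± 0.11 (SE, limma adjusted p = 5.31e-06). For both of these masses the groups did not overlap, whereas the sums over the masses of C18H32O4 did.

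Dihydroxystearic acid, C18H36O4, was matched by 316.2615 Da, which was listed at 0 in all 4 untreated samples and at 1.49, 1.67, 1.47 and 1.72 in the streptomycin samples. The most unsaturated formula with 4 oxygens, C18H28O4, did not follow the rest. Its main mass at 308.1989 Da stood at 5.77, 5.71, 2.70 and 4.19 in untreated and at 4.71, 5.24, 5.41 and 2.72 in streptomycin samples, with overlapping groups (log2 change -0.01 ± 0.32 SE, limma adjusted p = 0.980). The low values, 2.70 and 2.72, come from samples in which only 1 of the 2 acquisitions listed the mass, and the sign of its change turned on the median-ratio scale, at 0.38, and in the second acquisition alone, at 1.28, without passing. Its other mass stood at 1.39, 1.25 and 1.14 in 3 untreated samples and at 0 in the fourth and in every streptomycin sample.

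With 5 oxygens, 4 of 6 masses were listed in streptomycin samples only. Trihydroxyoctadecenoic acids (TriHOME), the triols of linoleic acid, have the formula C18H34O5, matched by 330.2408 Da. This mass stood at 5.11, 6.70, 5.43 and 5.28 in the untreated samples and at 13.2, 0, 12.4 and 17.2 in the streptomycin samples. The 3 streptomycin samples that listed it all lay above the untreated ones, and the second was listed at 0. With that sample the log2 change was -0.56 ± 1.72 (SE, limma adjusted p = 0.762), and without it 1.33 ± 0.15 (SE, limma adjusted p = 0.000133), so 1 sample decides both sign and call.

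The formula with a further double bond or ring, C18H32O5, is that of trihydroxyoctadecadienoic acids, the corresponding triols of linolenic acid. Its mass at 328.2251 Da stood at 2.24, 2.83, 2.56 and 1.95 in untreated and at 8.72, 11.3, 7.74 and 7.68 in streptomycin samples. All streptomycin samples were higher, by a ratio of group means of 3.69, with a log2 change of 1.88 ± 0.17 (SE, limma adjusted p = 1.59e-05). The second streptomycin sample, which listed C18H34O5 at 0, had the highest value.

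The saturated triol formula C18H36O5, that of trihydroxystearic acid, which is also a building block of plant cutin and suberin, was matched by 332.2563 Da. It was listed at 0 in all 4 untreated samples and at 4.58, 4.93, 3.59 and 5.76 in the streptomycin samples. Higher by the difference between potassium and sodium lay 348.2301 Da, which only untreated samples listed, with a mean of 1.21. A common origin with 332.2563 Da was not tested. The 2 masses of C18H30O5, both at 326.2094 Da, were also at 0 in the untreated samples. They stood at 2.50, 2.82, 2.52 and 3.01 and at 1.03, 1.33, 1.34 and 1.38 in the streptomycin samples. C18H28O5, at 324.1938 Da, was listed in 3 streptomycin samples, at 1.81, 1.75 and 1.57, and at 0 in the second streptomycin sample and in all untreated ones. No fold is given for these 4 masses, since a value of 0 means only that the mass was not listed. Below the mass of C18H28O5 by the difference between potassium and hydrogen lay 286.2379 Da, which was listed in both groups. It stood at 2.63 ± 0.316 in untreated and at 1.25 ± 0.841 in streptomycin samples (SD, n = 4). Where both masses were listed, it was at 0.857 to 1.15 times the C18H28O5 mass. Whether these are 1 ion listed under different neutral masses was not tested.

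When all masses of the table within 3 ppm of each other were summed before the fit, 11 of the 15 formulas were listed in both groups, of which 5 fell and 3 rose, against 39.7% lower and 21.8% higher among the 629 summed masses of the table in both groups. The 5 that fell were all 5 formulas with 3 oxygens. Their log2 changes were -0.36 ± 0.12 for C18H28O3 (SE, limma adjusted p = 0.0233), -1.85 ± 0.13 for C18H30O3, -2.47 ± 0.11 for C18H32O3, -1.16 ± 0.17 for C18H34O3 and -1.35 ± 0.35 for C18H36O3. The values for C18H30O3 and C18H32O3 include a mass at 0 in the streptomycin samples, which means only that it was not listed there. Their masses listed in both groups changed by -0.82 and -1.22, as given above. The 3 that rose were C18H30O4, C18H32O5 and C18H34O4, the last at 0.51 ± 0.15 (SE, limma adjusted p = 0.0155). C18H32O4, whose less intense mass was in untreated samples only, no longer passed once summed, at 0.34 ± 0.22 (SE, limma adjusted p = 0.174), and C18H28O4 and C18H34O5 did not pass either.

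**Figure D3:**
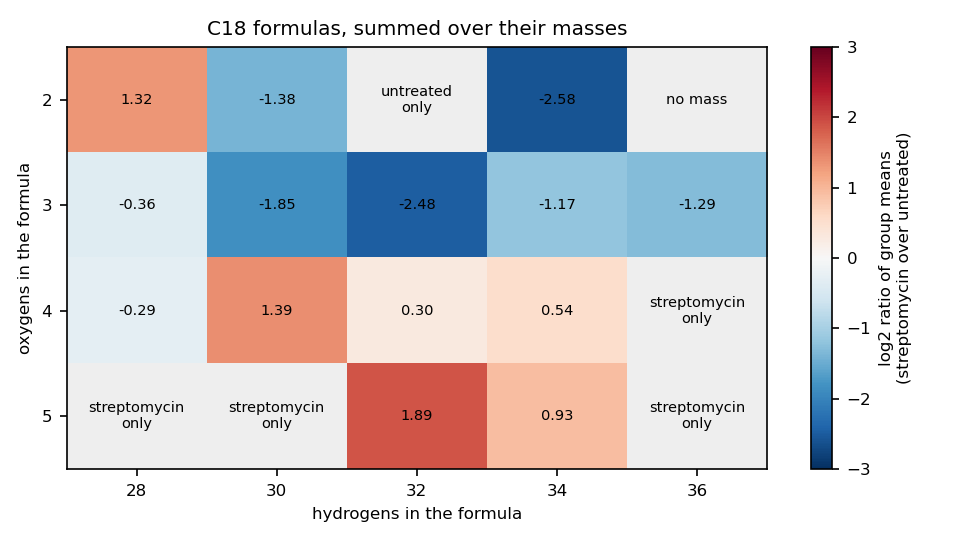
Log2 ratio of the streptomycin over the untreated mean (n = 4 each) of each C18 formula, summed over its masses, by oxygen number (rows) and hydrogen number (columns), with the parent fatty acids in the row of 2 oxygens; grey cells were listed in 1 group only or had no mass. All 5 ratios with 3 oxygens are below 0, from -2.48 to -0.36, while with 5 oxygens the ratio for C18H32O5 is 1.89 and that for C18H34O5 is 0.93, the latter with 1 streptomycin sample at 0 and a fitted log2 change of the opposite sign, -0.56.

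The parent fatty acids, with 2 oxygens, are the substrates of these acids. Oleic acid, C18H34O2 at 282.2555 Da, stood at 2264, 1817, 1874 and 1899 in untreated and at 265, 262, 386 and 398 in streptomycin samples, a log2 change of -2.61 ± 0.18 (SE, limma adjusted p = 2.23e-06). Linoleic acid, C18H32O2, was matched by a mass 2.61 ppm below its formula that was listed in untreated samples only, at 2044 ± 280 (SD, n = 4). No ratio to its products could therefore be formed. For linolenic acid, C18H30O2, the groups were listed under different masses, with errors of -0.648 ppm in untreated and 1.51 ppm in streptomycin samples. The sum went from 39.5 ± 4.84 to 15.1 ± 1.96 (SD, n = 4). C18H28O2, also under different masses in the 2 groups, went from 1.49 ± 0.202 to 3.72 ± 0.502 (SD, n = 4), and stearic acid, C18H36O2, had no mass within 3 ppm. Masses beyond 3 ppm of the parent formulas were not searched. Whether a mass of stearic acid, or of linoleic acid in streptomycin samples, lies outside that window was not tested.

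Ratios of formulas within a sample do not depend on how the sample is scaled. Of the 27 pairs of formulas that differ by 1 oxygen or by 2 hydrogens, parents included, 15 had values above 0 in all 8 samples, and of these 11 differed between the groups (exact two-sided permutation test, p = 0.0286, the smallest that 4 against 4 samples allow; adjusted p = 0.0390 over the 15 pairs). Pairs that share a formula are not independent. A pair is a difference of formula and not a reaction step, since addition of water changes oxygen and hydrogen together and such pairs were not formed. How often ratios of other masses of the table differ was not tested, so the count of pairs has no share to stand against. Of single masses listed in both groups, 38.7% of 633 fell and 20.7% rose. All samples were taken at 1 dose and 1 time.

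Relative to the formula with 1 oxygen fewer, the formula with more oxygen rose in 5 of the 8 such pairs tested, fell in 1 and did not pass in 2. The log2 ratio of C18H30O4 to C18H30O3 stood at -3.89, -3.27, -3.47 and -3.56 in the untreated samples and at -0.31, -0.24, -0.38 and -0.33 in the streptomycin samples. It thus rose by 3.23, with an exact 97.1% interval from 2.89 to 3.65. The ratio of C18H32O4 to C18H32O3 rose by 2.82 (2.40 to 3.54), that of C18H34O4 to C18H34O3 by 1.68 (1.16 to 2.30), and that of C18H32O5 to C18H32O4 by 1.54 (0.92 to 2.13). In each of these pairs every streptomycin ratio lay above every untreated one. The sums of C18H30O3, C18H32O3 and C18H32O4 each include a mass at 0 in all streptomycin samples, which means only that it was not listed there. With the mass of highest mean over all samples for each formula, C18H30O4 to C18H30O3 rose by 2.20 and C18H32O4 to C18H32O3 by 2.12. Each of these values lies below the interval given for its sums. The ratio of C18H34O3 to oleic acid rose by 1.44 (0.83 to 2.06), as oleic acid fell by more than C18H34O3 did, whereas that of C18H28O3 to C18H28O2 fell by 1.69, with an interval from -2.33 to -1.14. That last ratio sets different masses of C18H28O2 against each other in the 2 groups.

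The other 2 oxygen pairs did not pass. C18H28O4 to C18H28O3 changed by 0.05 (-1.15 to 0.84; exact permutation p = 0.8286) and C18H30O3 to linolenic acid, again under different masses in the 2 groups, by -0.46 (-0.79 to 0.08; exact permutation p = 0.0571, adjusted p = 0.0714). Both intervals include 0, and that of the first is wide in both directions.

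Pairs that differ by 2 hydrogens, the equivalent of 1 double bond, showed no common direction, with 2 of 7 higher, 3 lower and 2 not past the threshold. Among acids with 3 oxygens, C18H30O3 fell relative to C18H28O3 by 1.48 on the log2 scale (interval -1.69 to -1.19), C18H32O3 fell relative to C18H30O3 by 0.62 (-0.89 to -0.37), and C18H34O3 rose relative to C18H32O3 by 1.31 (0.99 to 1.65). The ratio of C18H36O3 to C18H34O3 changed by -0.19 (-1.40 to 0.89; exact permutation p = 0.714, adjusted p = 0.765). Among acids with 4 oxygens, C18H30O4 rose relative to C18H28O4 by 1.70 (0.84 to 2.80), C18H32O4 fell relative to C18H30O4 by 1.04 (-1.56 to -0.16), and C18H34O4 to C18H32O4 changed by 0.17 (-0.88 to 0.96; exact permutation p = 0.514, adjusted p = 0.593).

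Some of these pairs depended on which mass stood for a formula. When each formula was represented by its mass of highest mean over all 8 samples, C18H34O3 to C18H32O3 changed by only 0.08 and C18H30O3 to C18H28O3 by -0.16, and neither passed (exact permutation test, adjusted p = 0.371 for each). The other 3 called hydrogen pairs passed, at -0.40 for C18H32O3 to C18H30O3, 1.39 for C18H30O4 to C18H28O4 and -0.49 for C18H32O4 to C18H30O4 (exact permutation test, adjusted p = 0.0464). With that choice the 5 oxygen pairs that rose still passed, at 2.20 for C18H30O4 to C18H30O3, 2.12 for C18H32O4 to C18H32O3, 1.85 for C18H34O4 to C18H34O3, 0.99 for C18H32O5 to C18H32O4 and 1.46 for C18H34O3 to oleic acid (exact permutation test, adjusted p = 0.0464). In the untreated samples alone the other mass of C18H32O3 and of C18H30O3 had the higher mean, at 20.7 against 15.1 and at 10.1 against 9.81, but both were at 0 in the streptomycin samples and give no ratio. The call for C18H30O4 to C18H28O4 ended with the second acquisition alone, at 1.04 (exact permutation test, adjusted p = 0.179).

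**Figure D4:**
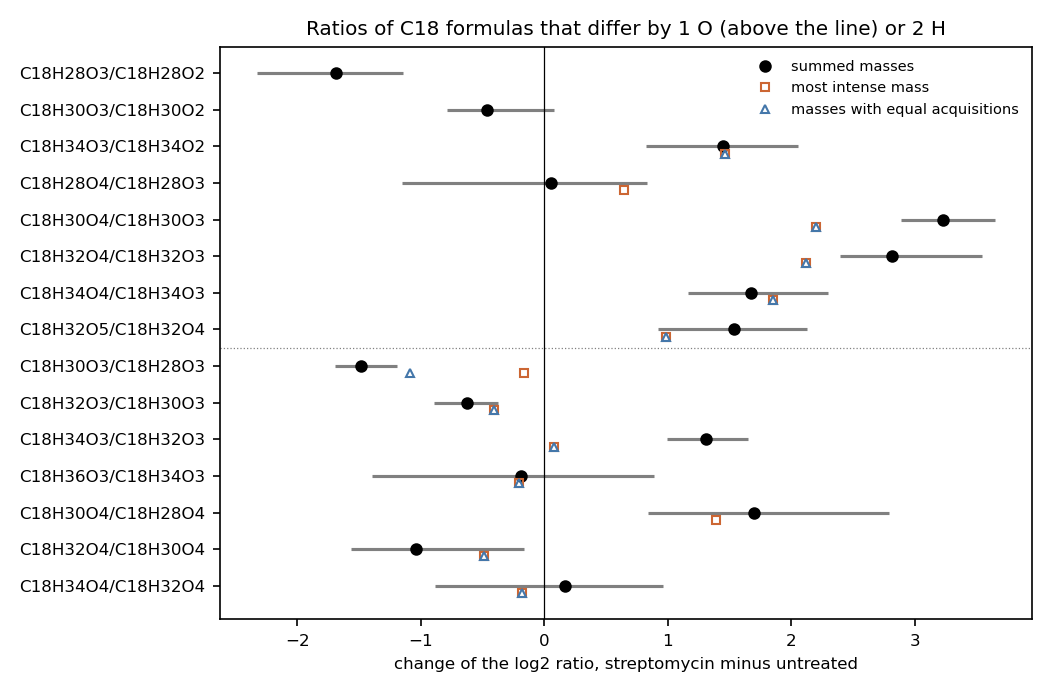
Change of the log2 ratio of 2 formulas, streptomycin minus untreated, for the 15 pairs tested; black points are sums over the masses of a formula with exact 97.1% intervals as grey lines (n = 4 per group), squares the mass of highest mean over all samples, and triangles the masses whose acquisitions were equal in the first streptomycin sample. Above the dotted line, where the pairs differ by 1 oxygen, 5 of 8 intervals lie above 0, and below it the directions are mixed.

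Fragments and relatives of these acids were looked up as well, by a list of 8 formulas of cleavage products and plant oxylipins. Of these, 6 were matched, by 7 masses, and pimelic and suberic acid had no mass within 3 ppm. Oxononanoic acid and azelaic acid, which arise when the carbon chain of an oxidised oleic or linoleic acid breaks, and the dicarboxylic sebacic acid were listed in streptomycin samples only, at 0.345 ± 0.103, 0.246 ± 0.181 (in 3 of 4 samples) and 0.476 ± 0.0701 (SD, n = 4). These levels lie near the lowest intensity of the table, 0.0738, and are weak signals.

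Jasmonic acid, a plant hormone made from linolenic acid, at 210.1256 Da, was found in the untreated group alone, with values of 1.84, 1.57, 1.44 and 1.17. Traumatin, a plant wound product with the formula C12H20O3, was listed in 3 untreated samples, at 2.14, 2.06 and 1.85, and in no other. Traumatic acid, its oxidised form, had 2 masses at 228.1362 Da: 1 had untreated and streptomycin means of 3.19 ± 0.809 and 0.333 ± 0.0536 (SD, n = 4) and fell by a log2 value of 3.24 ± 0.20 (SE; adjusted p = 1.37e-06 by limma), and the other, at 2.05 ± 0.926 and 1.88 ± 0.305, did not pass (limma adjusted p = 0.969). Of the 7 masses of the list, 2 were listed in both groups, too few to set against the 38.7% of all such masses that fell.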

How the data were processed

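Fecal extracts of 4 untreated and 4 streptomycin samples were measured by infusion Fourier-transform mass spectrometry in both ion modes. The authors deposited relative intensities per neutral mass and acquisition, on a linear scale. What they are relative to, how peaks were picked and which ion mode a mass came from are not given in the sources used here. Members were rows within 3 ppm of a formula. A sample's intensity was the mean of its 2 acquisitions, with 0 where not listed.

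Values of 0 took the lowest intensity of the table, 0.0738, and log2 values of all 2429 masses (all passed a minimum of 3 listed samples in 1 group) were fitted with limma (lmFit, eBayes, no replicate block, Benjamini-Hochberg, threshold 0.05). The step was tested on simulated data. Formula pairs used sums over a formula's masses and exact permutation tests; intervals are the shifts that test does not reject. Every formula is named, with samples' values for its masses. Members and lists were chosen with earlier results of these data known. Software was R 4.3.3, limma 3.58.1, Python 3.11.15, numpy 2.4.6, pandas 2.3.3 and matplotlib 3.10.9.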

Additional observations from a re-analysis of the deposited data

Results flagged for a closer look

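In 67 groups of 4 values, 9 had 1 sample that stood far from the other 3 (past Dixon's critical value, which chance alone gives in about 5% of groups). The first untreated sample was high for the less intense mass of C18H34O3, at 20.9, and the fourth was listed at 0 for the mass of C18H32O4 at 312.2303 Da. The second streptomycin sample was listed at 0 for C18H28O5, as it was for C18H34O5, and the first was low for the less intense mass of C18H30O5, at 1.03. Of the log2 ratios, C18H28O3 to C18H28O2 was at 3.06 in the second untreated sample, C18H30O3 to C18H30O2 at -1.19 in the third, and C18H34O4 to C18H32O4 at 2.03 in the fourth, where the second mass of C18H32O4 was at 0. In the fourth streptomycin sample C18H28O4 to C18H28O3 was at -1.70 and C18H30O4 to C18H28O4 at 0.88; there only 1 acquisition listed C18H28O4.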

How the results depend on the processing

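The counts of 4 members higher and 6 lower stayed within 1.5 times under every alternative run: other values for undetected masses, detection filters, 3 scalings, single acquisitions, the mean over listed acquisitions, a trend, the methods' t-test, tolerances of 2 and 1 ppm, summed rows and leaving out each sample (4 to 5 higher and 6 lower). The fewest were 3 higher, by calibrants and with summed rows, and 5 lower, with summed rows. With the replicate block they were 4 higher and 6 lower; same-numbered samples correlated at 0.0301 to 0.124 in their deviations from the group means, and 2 of 4 matched best with their own number, so the numbers were not taken as pairs. C18H34O5, not called, ran from -1.29 to 1.33 when a sample was left out and passed only without the second streptomycin sample; with the lowest intensity of its row for 0 it was at 0.97. The 10 called members kept their sign under all these settings. The count of 11 pairs became 8 of 13 with the mass of highest mean over all samples and 10 or 11 with single acquisitions, listed acquisitions or other tolerances, and 8 of 11 with masses of equal acquisitions; the last and the listed acquisitions were added after seeing the data. Leaving out 1 sample leaves 3 against 4, whose smallest p is 0.0571, and sign flips of 4 differences allow 0.125, so no pair can pass there; all 88 such values of the 11 pairs kept their sign. Ion counts behind an intensity are unknown.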
